A study of Rattus norvegicus with 2 samples.

Results

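The genes described are the apoptosis regulators named on a rat Agilent array: caspases, the BCL2 family, the inhibitors of apoptosis (IAPs), the TRAF adaptors and the death receptor genes. They were chosen by symbol alone: all annotated symbols that start with Bcl2, with Casp or Traf and a digit, or with Birc other than Birc5, and a fixed set of single genes such as Bax, Bid, Fas and Ripk3. This gave 47 genes of the 15615 named genes, measured by 67 of the 20417 named probes. Pmaip1 and Fadd, which the rule also lists, were not analysed here.

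RNA of lung cells (2 samples, replicates 1 and 2) was hybridised in Cy3 against RNA of mix1 in Cy5 on 2 two-colour arrays. The lung cells were untreated and had not been cultured. Mix1, the control RNA, came from cultured bone marrow cells mixed with cultured primary ear fibroblasts, both of rat and kept with serum. The sources used here give no strain, age or number of animals and do not say whether the lung replicates are from different animals, so the p-values reflect the scatter of these 2 samples, which may be technical. Mix1 was 1 RNA, whose own variation does not enter the test, and the dyes were never swapped. Each value is a log2 ratio of lung over mix1, so 1 stands for 2-fold higher in lung and -1 for 2-fold lower. This direction is likely and not stated outright: it rests on how the series describes the values and on lung epithelial genes being positive.

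Apoptosis runs along an extrinsic route, in which ligands such as FASLG engage death receptors and activate initiator caspases, and an intrinsic route through the outer mitochondrial membrane. On the intrinsic route, BH3-only proteins sense damage or lost survival signals, anti-apoptotic BCL2 proteins hold them in check, and BAX and BAK open the membrane so that cytochrome c can assemble APAF1 and caspase-9 into the apoptosome. IAPs restrain caspases or, with TRAF adaptors, steer receptor signalling to NF-kB. In lung, these proteins set the turnover of epithelium and the removal of leukocytes after inflammation, and inflammatory caspases there process cytokines.

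The lung RNA carried the transcripts its label calls for. All 12 lung epithelium markers measured were higher in lung (range 3.94 to 7.95), as were all 10 endothelium markers (0.96 to 6.23) and all 9 T and NK cell markers (1.34 to 6.18). All 10 fibroblast markers were lower (-7.25 to -1.01), and so were 11 of 12 proliferation markers (list median -2.81). Since the epithelial genes also settled the sign of the ratio, they are no evidence of a difference. Over all 15615 genes, 82.7% passed the test, so a call alone says little here. Pearson's r between the arrays was 0.983 over all genes and 0.998 over the 47 apoptosis genes, as a description across genes of arrays that share the mix1 RNA.

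Promoters of 4 of these genes are printed because they belong to the highest and lowest ratios and differ widely in base composition. The sequences run from 250 bases before to 50 bases after the start of the gene, on the gene's strand, and come from RefSeq, assembly GRCr8. Capitals mark 3 core promoter motifs on either strand, and matches may overlap each other. TATAAA is the letters bound by the TATA-binding protein, CCAAT is known as a site of NF-Y, and GGGCGG as a site of SP1. Faslg lies at chr13:76695454-76695753 on the minus strand and Bcl2l14 at chr4:168948730-168949029 on the plus strand, and both were far higher in lung. Ripk3, at chr15:33261976-33262275 on the minus strand, and Traf3, at chr6:136026799-136027098 on the plus strand, were lower in lung.
Faslg: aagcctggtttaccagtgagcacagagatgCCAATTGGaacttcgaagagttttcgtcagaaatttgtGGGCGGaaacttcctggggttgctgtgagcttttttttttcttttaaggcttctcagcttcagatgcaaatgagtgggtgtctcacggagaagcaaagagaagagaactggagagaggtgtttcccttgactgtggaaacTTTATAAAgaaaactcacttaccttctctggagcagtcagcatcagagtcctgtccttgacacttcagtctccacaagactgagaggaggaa
Bcl2l14: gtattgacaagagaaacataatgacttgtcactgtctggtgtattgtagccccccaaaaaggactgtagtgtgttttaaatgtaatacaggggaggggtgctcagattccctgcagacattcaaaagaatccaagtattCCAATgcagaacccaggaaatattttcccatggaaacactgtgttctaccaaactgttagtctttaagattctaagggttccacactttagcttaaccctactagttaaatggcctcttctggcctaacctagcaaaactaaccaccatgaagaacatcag
Ripk3: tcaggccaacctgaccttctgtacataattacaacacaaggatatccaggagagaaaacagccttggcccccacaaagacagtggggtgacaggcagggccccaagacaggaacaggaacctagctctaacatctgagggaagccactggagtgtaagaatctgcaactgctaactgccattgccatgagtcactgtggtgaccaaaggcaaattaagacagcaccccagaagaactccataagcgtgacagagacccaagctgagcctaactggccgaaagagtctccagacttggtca
Traf3: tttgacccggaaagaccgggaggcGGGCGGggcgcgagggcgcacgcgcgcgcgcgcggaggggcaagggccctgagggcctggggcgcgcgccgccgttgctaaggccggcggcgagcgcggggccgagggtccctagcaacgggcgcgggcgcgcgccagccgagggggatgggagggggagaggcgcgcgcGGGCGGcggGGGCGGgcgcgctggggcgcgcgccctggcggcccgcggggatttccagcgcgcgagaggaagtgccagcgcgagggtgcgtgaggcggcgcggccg

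These 4 windows hold the extremes of CpG content among the apoptosis genes. The ratio of observed to expected CpG (CpG count times length, over C count times G count) was 0.265 for Faslg, 0 for Bcl2l14, 0.103 for Ripk3 and 1.21 for Traf3. The Traf3 window was 82.3% G and C, with 3 GGGCGG matches, against 41% for Bcl2l14, 45.3% for Faslg and 51% for Ripk3. Promoters were found by symbol for 35 of the 47 genes, 1 window a gene at its most upstream start, and their median CpG ratio was 0.605, against 0.417 over 27457 genes. Among them, the 9 genes at least 2-fold higher in lung had a median of 0.284, the 4 at least 2-fold lower had 0.35 and the other 22 had 0.77. GGGCGG occurred in 60% of the 35 windows, against 34.9% of all windows. CCAAT occurred in 25.7%, against 37.8% of all, and TATAAA in 11.4%, against 14.3%. The Ripk3 window held none of these letters. These values describe sequence and were not tested against the ratios. Tradd, Bok, Xiap, Bik, Casp8, Traf6, Bax, Bcl2l10, Casp4, Casp8ap2, Birc3 and Bbc3 had no entry.

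Apoptosis genes differed from mix1 in both directions, and the 4 largest differences were increases. Faslg was 85.4-fold higher in lung, Bcl2l14 35.9-fold, Bik 16.7-fold and Traf3ip3 11.9-fold, whereas the largest decrease was 5.45-fold, for Ripk3. With limma and an adjusted p under 0.05, 19 of 47 genes (40.4%) were higher in lung, where 32.9% of all named genes were, and 23 (48.9%) were lower, where 49.8% of all were. These shares lie near the background. At least 2-fold in both arrays, 11 genes (23.4%) were higher, against 16.5% of all genes, and 5 (10.6%) were lower, against 15.8%. A test against a 2-fold threshold (limma treat) called the same number higher, 11 genes (23.4%, against 13.7% of all), and 3 lower (6.38%, against 12.1%). In bulk RNA, fewer cells of a type and less RNA per cell cannot be told apart.

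The count of 5 genes lower by 2-fold depended on the array, the centring and the choice of probe. They were Bax, Bcl2l12, Fas, Ripk3 and Traf3. Replicate 1 alone (without replicate 2) gave 8, and replicate 2 alone gave 5. Casp9, Bok and Bcl2l11 were the 3 genes past 2-fold in replicate 1 alone. Taking the middle probe of a gene gave 9 genes lower and 11 higher. Where a gene has an even number of probes this takes the lower of the middle ones, so a gene with 2 probes can only move down. The deposited values were not centred on the median gene. The array medians were -0.19 in replicate 1 and -0.26 in replicate 2, and subtracting them raised the mean ratios by 0.22. Because these medians differ, the scatter between arrays, on which the refitted test rests, changed as well as the ratios. After median centring 22 apoptosis genes (46.8%) were higher, against 40.6% of all genes, and 17 (36.2%) were lower, against 38% of all. Decreases thus made up 43.6% of the calls on apoptosis genes in place of 54.8%, and 48.4% in place of 60.2% over all genes.

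**Figure D1:**
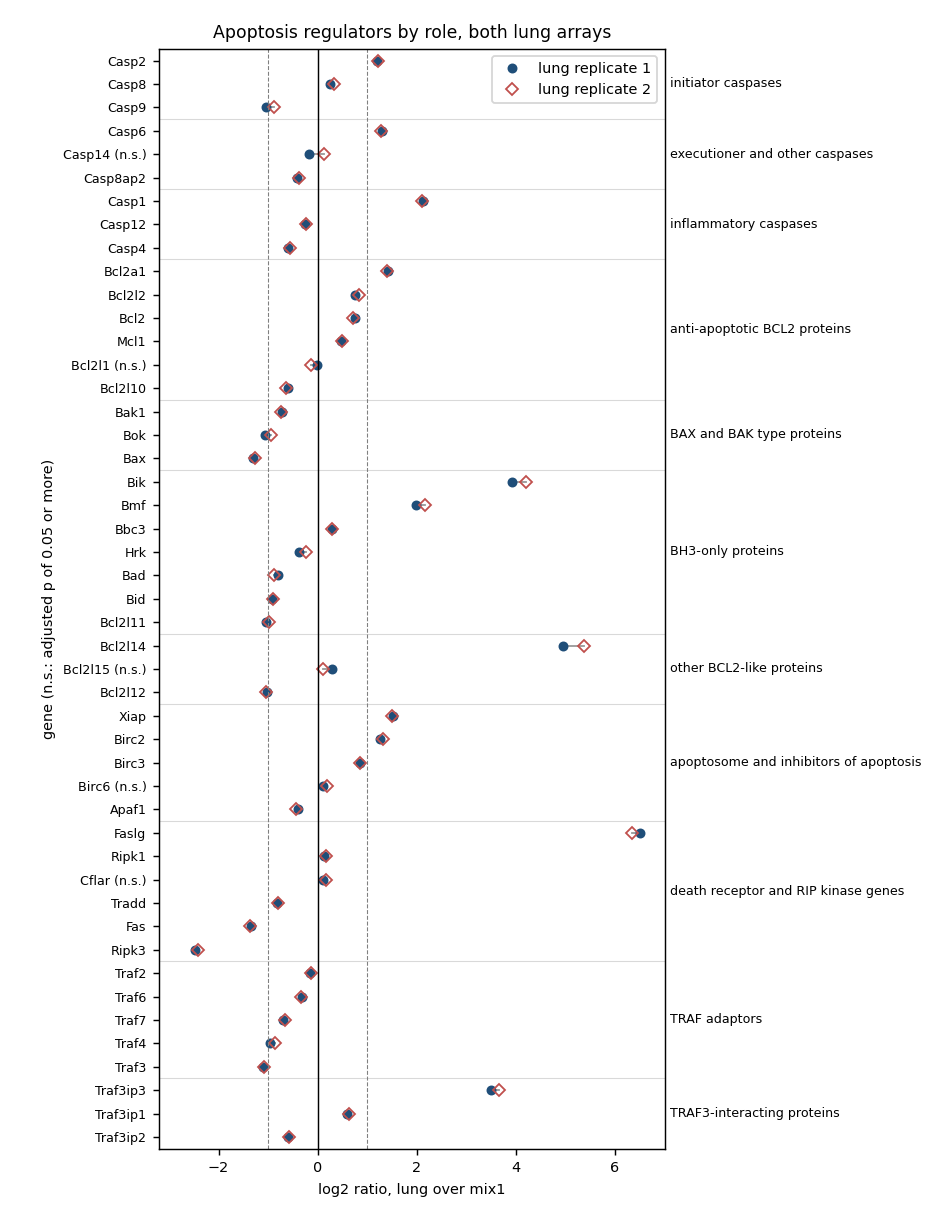
Log2 ratio of lung over mix1 for the 47 apoptosis genes, grouped by role and ordered by mean within a role. Filled circles are replicate 1 and open diamonds replicate 2, dashed lines mark 2-fold, and n.s. marks an adjusted p of 0.05 or more. Faslg (6.50 and 6.34) lies farthest right and Ripk3 (-2.47 and -2.43) farthest left. Casp14 has opposite signs in the arrays, and the sign of Traf2, which then does not pass, turns when array medians are subtracted.

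The spread between arrays was small for nearly all of these genes. The median SD was 0.03, against 0.051 over all genes, and only Casp14 changed sign between the arrays. The widest SD was 0.29 for Bcl2l14 and the narrowest 0.0013 for Birc3. The median of the 47 gene means was -0.07, against -0.23 over all genes, with quartiles of -0.77 and 0.82, against -0.75 and 0.57. In the mean, 29 of 47 genes (61.7%) stayed within 2-fold of mix1, as did 65.3% of all genes.

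**Figure D2:**
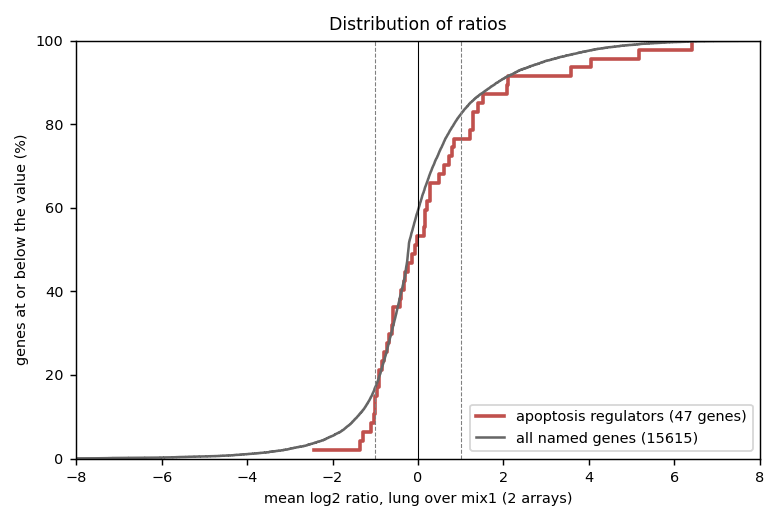
Cumulative share of genes at or below each mean log2 ratio of lung over mix1, for 47 apoptosis genes (red) and all 15615 named genes (grey); dashed lines mark 2-fold. The lowest apoptosis gene is Ripk3 at -2.45, and the red line lies to the right of the grey one between 0 and 1. Genes past the ends of the axis count toward the shares and are not drawn.

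Initiator caspases, which start the cascade, split. Casp2, which is activated in the PIDD complex, had log2 ratios of 1.20 in replicate 1 and 1.22 in replicate 2, and thus was 2.31-fold higher in lung (1.21 ± 0.01, SD, n = 2; limma adjusted p = 0.00152). Casp8, the initiator of the death receptor route, had 0.24 and 0.32, a small rise of 1.22-fold (0.28 ± 0.06, adjusted p = 0.0194). Casp9, the apoptosome caspase, had -1.05 and -0.89, and was 1.96-fold lower in lung (-0.97 ± 0.11, adjusted p = 0.00448). The arrays kept the order Casp2, Casp8, Casp9 without overlap, and both Casp9 probes averaged -0.97.

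Casp6, an executioner that cleaves nuclear lamins, rose. Its ratios were 1.30 and 1.28 in the 2 arrays, 2.44-fold higher in lung (adjusted p = 0.00145). Casp14, a caspase of cornifying epidermis, had -0.17 and 0.14 and did not pass (adjusted p = 0.898). Casp8ap2, a caspase-8 binding protein that also serves histone mRNA processing, had -0.42 and -0.37 (-0.39 ± 0.04, adjusted p = 0.00751), and after median centring it did not pass (adjusted p = 0.0890).

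The 3 inflammatory caspases lie side by side in the GRCr8 gene order and did not move together. Casp1, which matures interleukin-1β and interleukin-18, had 2.12 and 2.10 in the 2 arrays, 4.32-fold higher in lung (2.11 ± 0.01, adjusted p = 0.00118). Casp4, next to it with 0 protein-coding genes between, had -0.60 and -0.56 and was 1.50-fold lower (-0.58 ± 0.03, adjusted p = 0.00373). The protein is known from mouse as a sensor of cytosolic lipopolysaccharide. Casp12, the neighbour of Casp4, had -0.26 and -0.23 (adjusted p = 0.0157), and after median centring it did not pass (adjusted p = 0.845). Casp1 thus stood far above both neighbours in each array.

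Partners of Casp1 were measured within a list of 20 inflammasome and pyroptosis genes, not all of which work with Casp1. Of this list, 10 were higher in lung, 8 lower and 2 did not pass (list median 0.57). Beside this and every other list, the background is 32.9% of all named genes called higher, 49.8% called lower and a median ratio of -0.23. The sensors Mefv (4.52 ± 0.03), Aim2 (3.76 ± 0.12) and Nlrp12 (2.86 ± 0.44) and the Casp1 substrate Il18 (1.99 ± 0.0045) had its highest ratios, and Pycard, the adaptor that recruits Casp1, had 1.68 ± 0.04. The lowest were Il1a (-1.37 ± 0.05), Il1b (-1.11 ± 0.02), the Casp1 and Casp4 substrate Gsdmd (-0.69 ± 0.0019) and Card9 (-0.61 ± 0.02). The 2 cytokine substrates of Casp1, Il18 and Il1b, therefore had opposite signs. Of 7 neutrophil markers 6 were higher (list range -0.05 to 7.65), and of 8 macrophage markers 3 were higher and 3 lower (-2.49 to 2.59). The part of these cells in the Casp1 ratio was not tested.

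Of 6 anti-apoptotic BCL2 genes, 4 were higher in lung, Bcl2l10 was lower and Bcl2l1 did not pass. Over all named genes, 32.9% were called higher and 49.8% lower. Bcl2a1, an NF-kB target of leukocytes, had 1.43 and 1.41 and was 2.67-fold higher (1.42 ± 0.02, adjusted p = 0.00138). Bcl2, the founding member, had 0.76 and 0.72 (0.74 ± 0.03, adjusted p = 0.00272), and its 2 probes averaged 0.43 and 1.04. Mcl1, a short-lived guardian of many cell types, had 0.48 and 0.49 (0.48 ± 0.01, adjusted p = 0.00432). Its probes, at 0.31 and 0.66, were both above 0. These 3 genes kept their sign in every probe and array.

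For 2 anti-apoptotic genes the direction depended on the probe. Bcl2l2, which encodes BCL-W, had 0.76 and 0.84 (0.80 ± 0.06, adjusted p = 0.00321), but its probes averaged -0.80 and 2.39, so the gene is higher in lung by the mean and lower by the lower of its 2 probes. Bcl2l1, which encodes BCL-XL and a shorter pro-apoptotic form, had -0.01 and -0.14 (adjusted p = 0.303). Of its 4 probes, 3 lay below 0 (-0.47, -0.38 and -0.33) and the fourth at 0.88. Bcl2l10, a divergent family member, had -0.59 and -0.64 in the 2 arrays (-0.62 ± 0.03, adjusted p = 0.00363).

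All 3 pore-forming genes of the BAX and BAK type were lower in lung, where 49.8% of all named genes were. Bax had -1.31 and -1.27 and was 2.45-fold lower (-1.29 ± 0.03, adjusted p = 0.00154), with probes at -1.50 and -1.09. Bok, a BAX relative, had -1.07 and -0.95 (-1.01 ± 0.09, adjusted p = 0.00320). Bak1, the partner of BAX at the mitochondrial membrane, had -0.73 and -0.75 (-0.74 ± 0.01, adjusted p = 0.00247). Every array and probe of the 3 genes lay below 0. All 3 were also called lower after median centring, where 38% of all named genes were. Their median was -1.01, against -0.23 over all genes. The fibroblast list (-7.25 to -1.01) and the proliferation list (-4.28 to -0.04) were low in lung too, and their part in these ratios was not tested.

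**Figure D3:**
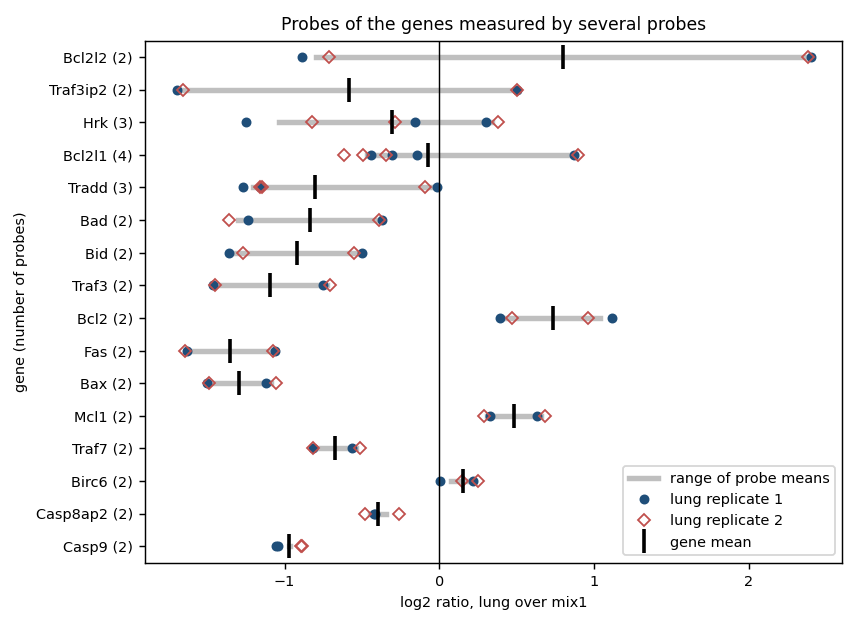
Log2 ratio of lung over mix1 of each probe of the 16 apoptosis genes with several probes, ordered by the range of the probe means. Filled circles are replicate 1, open diamonds replicate 2, grey bars span the probe means and black ticks mark the gene mean. Probes lie on both sides of 0 for Bcl2l2, Traf3ip2, Hrk and Bcl2l1, whose direction depends on the probe, and agree within 0.0089 for Casp9.

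The 7 BH3-only genes, which trigger the intrinsic route, ranged from -1.01 to 4.06. Bik, a BH3-only protein of the endoplasmic reticulum, had 3.92 and 4.20 in the 2 arrays and was 16.7-fold higher in lung (4.06 ± 0.19, adjusted p = 0.00147). Bmf, which is tethered to the cytoskeleton and released on loss of attachment, had 1.98 and 2.18, 4.23-fold higher (2.08 ± 0.13, adjusted p = 0.00202). Bbc3, which encodes PUMA, had 0.30 and 0.29 (0.29 ± 0.01, adjusted p = 0.00999).

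The other 4 BH3-only genes were lower in lung. Bcl2l11, which encodes BIM, the killer of leukocytes deprived of cytokines, had -1.04 and -0.99, 2.02-fold lower in the mean (-1.01 ± 0.04, adjusted p = 0.00202). Bid, which caspase-8 cleaves to link the receptor route to mitochondria, had -0.93 and -0.91 (-0.92 ± 0.01, adjusted p = 0.00194). Bad, which survival kinases inactivate by phosphorylation, had -0.81 and -0.87 (-0.84 ± 0.05, adjusted p = 0.00273). Both probes of Bid (-1.31 and -0.53) and of Bad (-1.30 and -0.38) lay below 0. Hrk, best known from neurons, had -0.37 and -0.24 (adjusted p = 0.0257), with probes at -1.03, -0.22 and 0.34, and after median centring it did not pass (adjusted p = 0.415). The BH3-only median of -0.31 thus covered 3 increases and 4 decreases.

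Of the other BCL2-like genes, Bcl2l14, which encodes BCL-G, stood out. It had 4.96 and 5.37 in the 2 arrays and was 35.9-fold higher in lung (5.17 ± 0.29, adjusted p = 0.00166), the 131st highest ratio of 15615 genes. Bcl2l15 had 0.30 and 0.11 and did not pass (adjusted p = 0.0897). Bcl2l12 had -1.02 and -1.04 and was 2.04-fold lower (-1.03 ± 0.02, adjusted p = 0.00176). The ratios of Bcl2l14 and Bik lay within the range of the 12 lung epithelium markers (3.94 to 7.95). They also lay within the endothelium (0.96 to 6.23), T and NK cell (1.34 to 6.18) and neutrophil (-0.05 to 7.65) ranges, among others. The part of any of these cells in the Bcl2l14 and Bik ratios was not tested.

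A further list held 43 mitochondrial death factors, nucleases and related genes, not all of which act at mitochondria. Of these 43, 9 were higher in lung, 31 lower and 3 did not pass (list median -0.35). After median centring 20 of the 43 were lower, where 38% of all named genes were. Cycs, the cytochrome c that binds APAF1, had -0.60 ± 0.06, and Vdac1, a channel of the outer membrane, had -1.36 ± 0.01. Diablo, which displaces IAPs from caspases, had -0.06 ± 0.02 and did not pass, and Htra2, which does so too, had -0.29 ± 0.0044. Bag2 (-3.59 ± 0.02), Aifm2 (-2.15 ± 0.01) and Dap (-1.72 ± 0.01) were the lowest. The highest were Dapk2 (3.26 ± 0.0079), a calmodulin-regulated death kinase, the lipid droplet genes Cidec (2.62 ± 0.15) and Cidea (2.01 ± 0.03), and the mitophagy receptor Bnip3l (1.55 ± 0.05).

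Downstream of mitochondria, the apoptosome gene was lower in lung and 3 of the 4 IAP genes in the set, which leaves out Birc5, were higher. Over all named genes, 32.9% were called higher and 49.8% lower. Apaf1, the scaffold of the apoptosome, had -0.39 and -0.44 (-0.41 ± 0.03, adjusted p = 0.00683), and after median centring it did not pass (adjusted p = 0.0588). Xiap, the direct caspase inhibitor, had 1.52 and 1.50 and was 2.85-fold higher (1.51 ± 0.01, adjusted p = 0.00132). Birc2, which encodes the ubiquitin ligase cIAP1, had 1.26 and 1.32, 2.45-fold higher (1.29 ± 0.05, adjusted p = 0.00173). Its GRCr8 neighbour Birc3, which encodes cIAP2, had 0.84 and 0.85, 1.80-fold higher (0.85 ± 0.0013, adjusted p = 0.00206). Birc6, a giant ubiquitin-conjugating IAP, had 0.11 and 0.20 and did not pass (adjusted p = 0.0573), but did after median centring (adjusted p = 0.00227). None of these 4 IAP genes had a negative ratio in either array. Birc5, which encodes the mitotic family member survivin and is left out of the set by its rule, had -2.87 and -2.83, 7.21-fold lower in lung (-2.85 ± 0.03, adjusted p = 0.00117), and it is named here after its values were seen.

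The death receptor genes held both extremes of the 47. Faslg, the ligand carried by cytotoxic lymphocytes, had 6.50 and 6.34 in the 2 arrays and was 85.4-fold higher in lung (6.42 ± 0.11, adjusted p = 0.00117), the 26th highest ratio of 15615 genes. Its receptor Fas had -1.35 and -1.36 and was 2.56-fold lower (-1.35 ± 0.01, adjusted p = 0.00140), with probes at -1.64 and -1.07. Ligand and receptor thus had opposite signs in both arrays. Beside Faslg, the 9 T and NK cell markers had a median of 4.61 in replicate 1 and 3.33 in replicate 2, and the part of these cells in the Faslg ratio was not tested.

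Cytotoxic granule genes were high with Faslg. Of a list of 11 granzyme, perforin and related genes, the last being Nkg7, Ctsc, Ctsw and Serpinb9, 10 were higher in lung. Gzmf did not pass, 0 were lower, and the list median was 3.32. Gzmk (4.74 ± 0.04), the pore protein Prf1 (4.55 ± 0.07), Gzma (4.47 ± 0.05) and Gzmm (3.58 ± 0.08) had its highest ratios. Gzmb, whose protease cleaves BID, had 3.41 ± 0.14, opposite in sign to Bid at -0.92.

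Inside the receptor complex, changes were small or downward. Tradd, the adaptor of the TNF receptor, had -0.82 and -0.80 (-0.81 ± 0.01, adjusted p = 0.00221), with probes at -1.21, -1.16 and -0.05. Ripk1, the kinase that receptor complexes share, had 0.14 and 0.17 (0.15 ± 0.02, adjusted p = 0.0370), and in the fit over single probes it did not pass (adjusted p = 0.0567). Cflar, a caspase-8 relative without protease activity and the GRCr8 neighbour of Casp8, had 0.10 and 0.16 and did not pass (adjusted p = 0.0630), but did after median centring (adjusted p = 0.00324). Ripk3, the kinase that drives necroptosis, had -2.47 and -2.43, 5.45-fold lower in lung (-2.45 ± 0.03, adjusted p = 0.00117). Thus the 2 RIP kinases differed by more than 2 log2 units in each array.

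Of 7 other genes in a list of necroptosis genes and RIP kinases, 5 were higher in lung and 2 lower (list median 0.75). Zbp1, the nucleic acid sensor that binds RIPK3, had 3.29 ± 0.11, opposite in sign to Ripk3. Ripk4 followed at 2.14 ± 0.59, then Ppm1b at 0.84 ± 0.02 and Tlr3 at 0.75 ± 0.03. Spata2 (-1.66 ± 0.13) and Pgam5 (-1.04 ± 0.12) were the genes called lower. Mlkl, the substrate of RIPK3, was not analysed here.

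Of 19 other death ligands and receptors, 5 were higher in lung, 13 lower and Cd40 did not pass (list median -0.42). After median centring 6 of the 19 were higher and 9 lower, where 40.6% and 38% of all named genes were. The ligand genes Ltb (3.65 ± 0.0058), Tnfsf10, which encodes TRAIL (3.58 ± 0.03), Cd40lg (1.62 ± 0.43) and Tnfsf14 (1.27 ± 0.03) were the highest. The receptor genes Tnfrsf12a (-4.34 ± 0.07), Tnfrsf11b (-2.25 ± 0.05) and Tnfrsf10b, the TRAIL receptor (-1.71 ± 0.32), and the ligand gene Tnf (-2.70 ± 0.02) were the lowest. TRAIL and its receptor thus showed the same opposition as Faslg and Fas. Tnfrsf1a, the TNF receptor that TRADD binds, had -0.48 ± 0.0039.

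All 5 TRAF adaptors in the set were lower in lung as deposited, and 3 after median centring. Of all named genes, 49.8% were called lower as deposited and 38% after centring. TRAFs link TNF and Toll-like receptors to kinases, and Traf1 and Traf5 were not analysed here. Traf3, a brake on non-canonical NF-kB signalling, had -1.11 and -1.08, 2.13-fold lower (-1.09 ± 0.02, adjusted p = 0.00170; probes -1.46 and -0.73). Traf4 had -0.97 and -0.86 (-0.91 ± 0.07, adjusted p = 0.00319), and Traf7 had -0.69 and -0.66 (-0.68 ± 0.02, adjusted p = 0.00280). Traf6, the adaptor of Toll-like and interleukin-1 receptors, had -0.32 and -0.34 (adjusted p = 0.00860), and after median centring it did not pass (adjusted p = 0.274). Traf2, which recruits the cIAPs, had -0.16 and -0.13 (adjusted p = 0.0387), but 0.073 after median centring (adjusted p = 0.462), and it did not pass in the fit over single probes (adjusted p = 0.0593). The role median was -0.68 as deposited.

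The 3 genes named for binding TRAF3 behaved differently from each other. Traf3ip3, which is found mainly in lymphocytes, had 3.49 and 3.66 and was 11.9-fold higher in lung (3.57 ± 0.12, adjusted p = 0.00125), against -1.09 for Traf3 itself. Traf3ip1, a protein of the ciliary transport machinery, had 0.58 and 0.63 (0.61 ± 0.04, adjusted p = 0.00375). Traf3ip2, the adaptor of the interleukin-17 receptor, had -0.60 and -0.58 (-0.59 ± 0.01, adjusted p = 0.00333), but its probes lay at -1.68 and 0.50, so its direction depends on the probe. For Traf3ip3, the T and NK cell markers (1.34 to 6.18) and 5 of 6 B cell markers (list range 2.01 to 5.06) were higher too, and their part was not tested.

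Of 26 NF-kB pathway genes, whose products TRAFs and cIAPs control, 14 were higher in lung, 10 lower and 2 did not pass (list median 0.32). In the mean, 88.5% were within 2-fold, against 65.3% of all named genes, a difference that was not tested. The kinase genes Tbk1 (0.93 ± 0.02), Chuk (0.74 ± 0.07), Ikbkb (0.69 ± 0.01) and Ikbke (0.60 ± 0.06) led the increases. Nfkbie (-1.24 ± 0.02), Nfkbiz (-1.17 ± 0.08), Nfkb2 (-1.05 ± 0.07) and the TRAF-binding Tank (-0.75 ± 0.06) led the decreases. Map3k14, the kinase whose turnover TRAF3 and the cIAPs direct, had -0.32 ± 0.03.

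**Figure D4:**
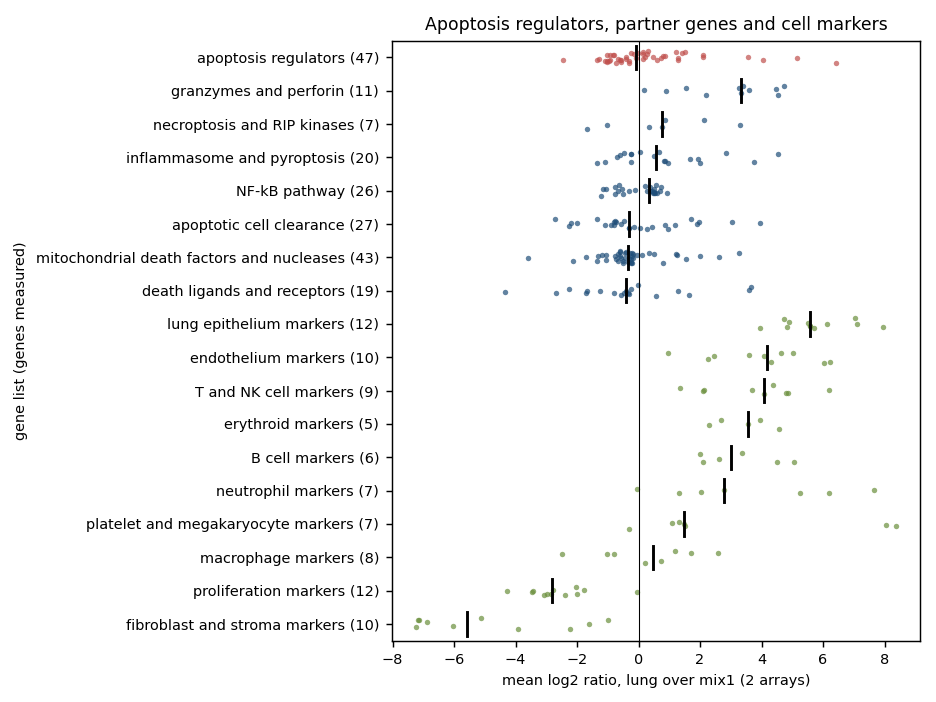
Mean log2 ratio of lung over mix1 (2 arrays) for each gene of the apoptosis set (red), of the partner lists (blue) and of the cell type marker lists (green); black ticks are medians, and points are shifted vertically for legibility. The apoptosis set has its median at -0.07, the granzyme list at 3.32, the lung epithelium list at 5.58 and the fibroblast list at -5.57; the sign of the apoptosis median turns when array medians are subtracted.

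By role, medians ran from -1.01 for the BAX and BAK type to 0.85 for the apoptosome and IAPs. This last role pools the IAP genes with the apoptosome gene Apaf1, which itself had -0.41. Anti-apoptotic BCL2 genes had a median of 0.61, TRAF3-interacting genes 0.61, initiator caspases 0.28 and other BCL2-like genes 0.21. Casp6, Casp14 and the caspase-8 binding Casp8ap2, grouped as executioner and other caspases, had -0.02, which is the value of Casp14. Inflammatory caspases had -0.24, BH3-only genes -0.31, death receptor and RIP kinase genes -0.34 and TRAFs -0.68. Among the 5 genes that did not pass (Casp14, Bcl2l1, Bcl2l15, Birc6 and Cflar), none exceeded a mean log2 size of 0.21.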

How the data were processed

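Rat lung RNA (Cy3) and mix1 RNA (Cy5) were compared on 2 two-colour Agilent arrays. RNA was extracted with TRIzol and cleaned on columns, per the labels' protocols. Agilent Feature Extraction was used, per the submitters' processing notes. Software version, background correction, dye normalization and centring are steps not given in the sources used here. The authors' deposited values were taken as log2 ratios. The base is inferred from their range (-11.74 to 9.09), and the probe medians are -0.16 and -0.21, so what the arrays were centred on stays unknown. Scanner intensities were not used here.

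The platform annotation, which can be old, names 20417 of 40012 probes, each with 1 symbol, and 19595 are unnamed here. Probes of a symbol were averaged, and no apoptosis gene changed its symbol on update to GRCr8. An intercept was fitted per gene by lmFit and eBayes of limma 3.58.1 (R 4.3.3), with Benjamini-Hochberg adjustment over all 15615 genes and a threshold of 0.05. The fit had 1 residual and 1.28 prior degrees of freedom. The ± values are the SD of 2 arrays, whose number limits the precision. Promoters were searched in Python 3.11.15.

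Every apoptosis gene could be named, and of each partner list up to 4 genes per direction plus direct partners. The apoptosis genes and all lists were chosen with earlier results of these data known. A further partner list, chosen with the others, is not reported here. Alternatives were median centring of each array, scaling between arrays, eBayes with robust estimation, treat, an adjusted p under 0.01, the middle probe, updated symbols, each array alone, genes with opposed probes left out, and single probes.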

Additional observations from a re-analysis of the deposited data

How the results depend on the processing

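No paired analysis was possible because both lung samples form 1 group and no other group carries replicate numbers. With 1 group, mix1 as 1 RNA and no dye swap, the precision of all values is limited by the number of arrays, and a dye effect cannot be told apart from the difference between the RNAs. Scaling between arrays and robust eBayes kept the direction and call of all 47 apoptosis genes. So did updated symbols and leaving out 33 genes with probes opposed by 2-fold, but these steps left the values of all 47 unchanged. Of the 33 genes, 0 were apoptosis genes. Bcl2l2, Traf3ip2, Hrk and Bcl2l1, with probes on both sides of 0, thus stayed in.

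Median centring ended the calls on Casp8ap2, Casp12, Hrk, Apaf1, Traf6 and Traf2, whose mean changed sign without passing (0.073, adjusted p = 0.462), and added 3. An adjusted p under 0.01 ended 5. The middle probe, which is the lower one in genes with 2 probes and so can only lower them, reversed Bcl2l2 (-0.80, adjusted p = 0.00690). Under treat, 11 apoptosis genes were higher and 3 lower (2144 and 1882 of all genes). Genes lower by 2-fold numbered 3 after centring and 9 by the middle probe. Centring moved the role medians to 0.50 (initiator caspases), 0.21 (executioner and other caspases), -0.021 (inflammatory caspases), 0.83 (anti-apoptotic BCL2 genes), -0.79 (BAX and BAK type), -0.084 (BH3-only), 0.43 (other BCL2-like), 1.07 (apoptosome and IAPs), -0.12 (death receptor and RIP kinase genes), -0.46 (TRAFs) and 0.83 (TRAF3-interacting genes). By the middle probe, the medians were -0.037 for anti-apoptotic BCL2 genes, -0.51 for death receptor and RIP kinase genes and -0.82 for TRAFs.

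With each replicate left out, no test was possible, and genes past 2-fold in the other array were counted: 11 to 11 apoptosis genes higher and 5 to 8 lower, and 2745 to 2783 of all genes higher and 2626 to 2790 lower. Among partner lists these counts were 6 to 6 lower for death ligands and receptors, 0 to 0 higher and 3 to 3 lower for NF-kB and 7 to 8 lower for mitochondrial factors. They were 6 to 7 higher and 2 to 2 lower for the inflammasome, 2 to 2 higher and 1 to 2 lower for necroptosis, and 5 to 6 higher and 6 to 8 lower for clearance.

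Treat left 3 higher and 5 lower for death ligands and receptors, 0 and 1 for NF-kB, 5 lower for mitochondrial factors, 6 and 1 for the inflammasome, 1 and 1 for necroptosis, and 5 and 5 for clearance. Centring left 20 genes of the mitochondrial factor list and 5 of the inflammasome list lower, where 38% of all named genes were. An adjusted p under 0.01 left 5 of the 20 inflammasome genes and 9 of the 27 clearance genes lower, against 5541 of all 15615 genes. The causes were not tested.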

Other observations

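Genes for the clearance of apoptotic cells did not move together. Of 27 measured, 10 were higher in lung, 14 lower and 3 did not pass (list median -0.32). The receptor genes Cd36 (3.96 ± 0.04, SD, n = 2), Timd4 (3.03 ± 0.28) and Mertk (1.96 ± 0.12) and the engulfment gene Elmo1 (1.89 ± 0.33) had the highest ratios. Itgb5 (-2.70 ± 0.03), Itgav (-2.25 ± 0.10), Lrp1 (-2.20 ± 0.04) and Axl (-2.01 ± 0.0037) had the lowest. Mertk and Axl, which belong to the same receptor kinase family, thus had opposite signs in both arrays.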
